A study of Mus musculus with 6 samples.

Results

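Of the 1055 mature miRNAs counted in whole mouse brain, 10 are known chiefly from blood and immune cells and are described here. They were chosen by name: miR-451, miR-144, miR-486 and miR-3107 of red cells, miR-142-3p, miR-142-5p, miR-150 and miR-223 of leukocytes, and miR-146a and miR-155, which immune cells and microglia induce. miR-486 and miR-3107 carried identical counts in each of the 6 libraries, so the 10 names give 9 distinct profiles, and every value for miR-486 below is also that of miR-3107. The libraries came from 3 wild-type and 3 Adar2-/- brains of adult female siblings on a 129SV background, killed at 5.5 months. Adar2-/- mice lack the RNA editing enzyme ADAR2 in all tissues. Both genotypes were homozygous for the pre-edited Gria2 allele (Gria2 R/R) that rescues the knockout, so the controls were not unmodified mice. Small RNA of 19 to 25 nucleotides from each brain was made into its own library.

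Red cell precursors transcribe miR-144 and miR-451 together as 1 primary transcript under erythroid transcription factors. miR-451 is the exception among these miRNAs in that its short hairpin bypasses Dicer and is cut by Argonaute 2, whereas miR-144 and the others are Dicer products. miR-486 is made in red cells and in striated muscle from the Ank1 gene, miR-142 is made throughout the blood lineages, miR-150 marks mature lymphocytes, and miR-223 marks neutrophils and monocytes. miR-146a is induced through NF-kB and dampens Toll-like receptor signalling, and miR-155, cut from the transcript once called BIC, promotes inflammatory activation of lymphocytes, macrophages and microglia. In brain these miRNAs can come from blood held in vessels, from resident microglia or from other cells. Whether the brains were perfused is not given in the sources used here, and in bulk RNA fewer cells of a type and less RNA per cell cannot be told apart.

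Mature sequences of 7 of the 10 were taken from RefSeq (GRCm38.p6) and are shown because the 2 arms of a hairpin, and neighbours in a cluster, are compared below. They run 5′ to 3′ with the seed (bases 2 to 8), which pairs with target mRNAs, in capitals. miR-144*, the other arm of the miR-144 hairpin, and miR-146b, a relative of miR-146a, are added for the same comparisons.
miR-451: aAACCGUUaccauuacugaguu
miR-144: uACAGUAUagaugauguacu
miR-144*: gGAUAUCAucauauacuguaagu
miR-142-3p: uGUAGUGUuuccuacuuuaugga
miR-142-5p: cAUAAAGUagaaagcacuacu
miR-223: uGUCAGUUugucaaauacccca
miR-155: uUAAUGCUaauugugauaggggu
miR-146a: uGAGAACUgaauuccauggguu
miR-146b: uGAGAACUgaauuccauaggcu
The 7 members had 7 different seeds, so no target family was counted more than once among them. miR-146a and miR-146b share their seed. miR-486, miR-3107 and miR-150 are named only.

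On NCBIM37 the Mir144 hairpin occupies chr11:77886507-77886572 and Mir451 chr11:77886672-77886743, both on the plus strand, 99 bases apart and outside any other annotated gene. Mir142 lies at chr11:87570366-87570429 within an intron of the non-coding transcript A430104N18Rik, and Mir146, the gene of miR-146a, at chr11:43187899-43187963 on the minus strand outside other genes. Mir486 lies at chr8:24253027-24253154 on the plus strand in an intron of Ank1, where the antisense gene Gm15816 also has an intron. Mir150 is at chr7:52377127-52377191 outside other genes, Mir155 at chr16:84714385-84714449 in an exon of its own non-coding host transcript, and Mir223 at chrX:93438156-93438265 in an exon of the non-coding transcript F630028O10Rik.

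Total mapped miRNA reads ran from 12449633 to 23935544 per library, and levels are given as reads per 1000000 of them (RPM). Adar2 mRNA was not analysed here, so the genotype labels were not checked. The neuronal markers miR-124, miR-9 and miR-128 had 113094 to 166115 RPM in sum in wild type and 121979 to 125876 in Adar2-/-, so the brain label held, although most of the sum was miR-9. miR-124 had 11709 ± 3928 and 17216 ± 7382 RPM and miR-128 had 504 ± 163 and 875 ± 431 RPM (SD, n = 3 each), both highest in Adar2-/- replicate 3 and neither past the test, and the part of this in the members' levels was not tested. Wild-type replicate 1 stood apart in the endocrine miRNA miR-375, with 3294 RPM against 42.9 to 113 in the other 5 libraries, and fold changes and spans that rest on this library are also given without it.

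miR-142-3p was the most read of the 9, with a mean over the 6 libraries of 1232 RPM (rank 71 of 1055). It was followed by miR-451 with 941 RPM, miR-150 with 440.3 RPM, miR-146a with 345 RPM, miR-486 with 107 RPM, miR-142-5p with 45.2 RPM and miR-144 with 16.7 RPM. The least read were miR-155 with 8.41 RPM and miR-223, the neutrophil and monocyte miRNA, with 3.02 RPM (rank 506). Of the 8 pairs of neighbours in this order, 3 kept it in all 6 libraries, and the other 5 in 5 of 6 libraries. Wild-type replicate 2 broke the order of miR-451 over miR-150 and of miR-144 over miR-155. The mature forms have 20 to 23 nucleotides where a sequence was at hand, so no length correction was made, and the order is one of reads that were not calibrated against known amounts.

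**Figure D1:**
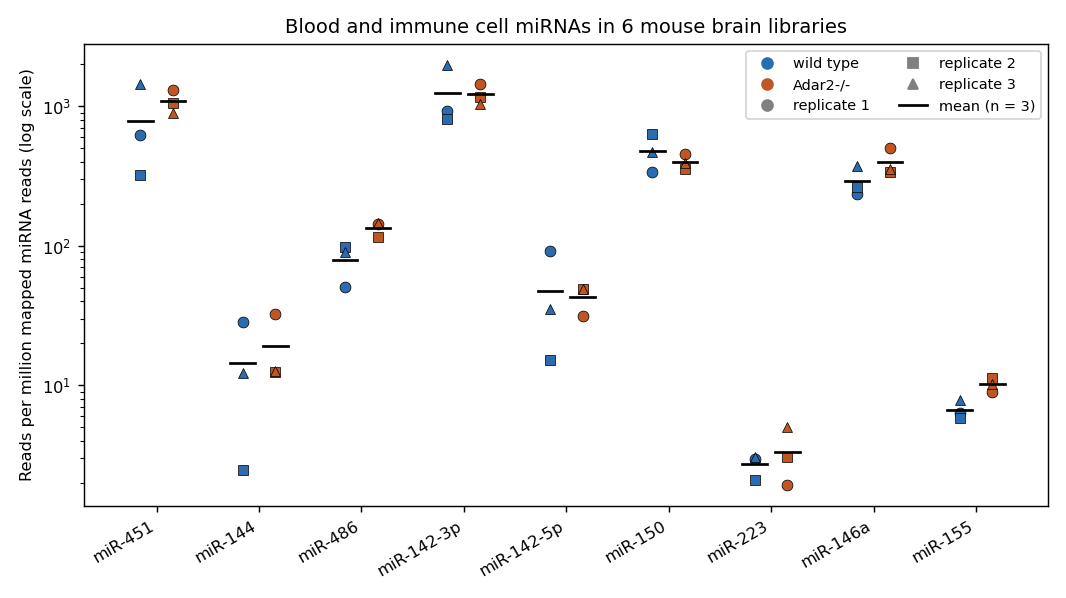
Level of each of the 9 distinct miRNAs (log axis, RPM) in each library, wild type in blue and Adar2-/- in orange, with the marker shape giving the replicate and the bar the mean of 3. miR-486 and miR-155 are the miRNAs whose 3 Adar2-/- points all lie above the 3 wild-type points.

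Among the red cell miRNAs, miR-486 differed most regularly between the genotypes, although no member passed the test over all miRNAs. miR-486 stood at 50.4, 97.7 and 90.2 RPM in wild-type replicates 1 to 3 and at 144, 115 and 147 RPM in Adar2-/- replicates 1 to 3. All 3 Adar2-/- brains lay above all 3 wild-type brains, with the lowest value in wild-type replicate 1. Of the 399 tested miRNAs, those for which no library fell short of 100 reads, 2.76% lay apart in this direction and 3.01% in the other. The means were 79.5 ± 25.4 and 135 ± 17.6 RPM (SD, n = 3 each), a ratio of 1.70 (exact permutation, two-sided, p = 0.1, the smallest that 3 against 3 allow). edgeR's quasi-likelihood fit gave a log2 fold change of 0.76 (standard error 0.344, 95% interval −0.0008 to 1.53, adjusted p = 0.988). The study lists miR-486 and miR-3107 among its consistently changed miRNAs from these same libraries, so this pattern is not independent evidence. Without wild-type replicate 1 the log2 fold change was 0.52 (adjusted p = 0.669), and without Adar2-/- replicate 3 it was 0.70 (adjusted p = 0.995).

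miR-486 is also a muscle miRNA, and the sums of other muscle miRNAs overlapped between the genotypes. In sum miR-1, miR-133a, miR-133b and miR-206 had 2340 to 3140 RPM in wild type and 2255 to 3390 RPM in Adar2-/-. None of these 4 was at 0, and the sum was mostly miR-1 and miR-206. Whether muscle had a part in the miR-486 levels was not tested. The ratios of Adar2-/- to wild type of the same replicate number were 2.85, 1.18 and 1.63 for miR-486. Since its genotypes did not overlap, each of these ratios had to exceed 1. Its other arm, miR-486*, had 24.7, 20.3 and 22.3 RPM in wild type and 18.9, 55.5 and 47.5 RPM in Adar2-/-, so Adar2-/- replicate 1 had the lowest miR-486* of all libraries and one of the highest miR-486 levels.

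miR-451, the most abundant red cell miRNA, stood at 619, 320.0 and 1438 RPM in wild-type replicates 1 to 3 and at 1303, 1065 and 904 RPM in Adar2-/- replicates 1 to 3. The wild-type brains held both the lowest and the highest level, and the Adar2-/- brains lay between them. The means were 792 ± 579 and 1090.4 ± 201 RPM (SD, n = 3 each), with p = 0.5 for their difference (exact permutation, two-sided). The log2 fold change was 0.46 (standard error 0.498, 95% interval −0.65 to 1.57, adjusted p = 0.988). It rested on which wild-type brain was used, with 1.22 without wild-type replicate 3 and 0.085 without wild-type replicate 2.

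miR-144, from the same primary transcript, had far fewer reads. It stood at 28.4, 2.46 and 12.2 RPM in wild type and at 32.3, 12.4 and 12.7 RPM in Adar2-/-. Wild-type replicate 2 was again the lowest, with 56 reads (95% Wilson interval 1.89 to 3.19 RPM, for counting error only), and here replicate 1 of both genotypes was highest. In edgeR the value of 0.42 on the log2 scale (standard error 0.600, adjusted p = 0.988) comes from the fit without a minimum of reads, and it was 1.38 without wild-type replicate 1, −0.08 without wild-type replicate 2 and −0.19 without Adar2-/- replicate 1.

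The red cell miRNAs together had 697, 420.1 and 1540.0 RPM in wild type and 1479, 1192 and 1063 RPM in Adar2-/-, of which miR-451 made up 76.2% to 93.3%. The ratio of the means was 1.41, and it moved to 2.23 without wild-type replicate 3 and 1.11 without wild-type replicate 2.

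miR-142-3p, the main leukocyte miRNA here, had 924, 815 and 1982 RPM in wild-type replicates 1 to 3 and 1443, 1178 and 1049 RPM in Adar2-/- replicates 1 to 3. As with miR-451, wild-type replicate 3 was highest and wild-type replicate 2 lowest. The means of 1241 ± 645 and 1223 ± 201 RPM (SD, n = 3 each) gave a ratio of 0.986 (exact permutation, two-sided, p = 1). The log2 fold change of −0.02 (standard error 0.399, 95% interval −0.91 to 0.87) leaves room for differences of either sign, and it became 0.02 with TMM factors and 0.49 without wild-type replicate 3.

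The 5p arm of the same hairpin was distributed differently. miR-142-5p had 91.6, 15.1 and 35.5 RPM in wild type and 31.2, 49.2 and 48.7 RPM in Adar2-/-. Wild-type replicate 1, low in miR-142-3p, was the highest in miR-142-5p. The ratio of the means was 0.908 (47.4 ± 39.6 and 43.0 ± 10.2 RPM, SD, n = 3 each), and the log2 fold change of −0.14 (standard error 0.563) turned to 0.76 without wild-type replicate 1.

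miR-150, the lymphocyte miRNA, stood at 336, 629 and 474 RPM in wild type and at 453, 358 and 392 RPM in Adar2-/-. Its highest brain was wild-type replicate 2, which was the lowest for miR-451, miR-144 and both arms of miR-142. The means were 479.6 ± 147 and 401 ± 48.2 RPM (SD, n = 3 each), with a log2 fold change of −0.26 (standard error 0.338, 95% interval −1.01 to 0.49, adjusted p = 0.988). It was −0.015 without wild-type replicate 2 and −0.46 without wild-type replicate 1.

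miR-223 was near the floor of the measurement, with 36 to 120 reads per library. It had 2.97, 2.11 and 3.07 RPM in wild type and 1.93, 3.05 and 5.01 RPM in Adar2-/-. Both the lowest and the highest level were in Adar2-/- brains. In Adar2-/- replicate 1 the 95% Wilson interval was 1.39 to 2.67 RPM and in Adar2-/- replicate 3 it was 4.19 to 5.99 RPM. The log2 fold change in the fit without a minimum of reads was 0.30 (standard error 0.426) and turned to −0.12 without Adar2-/- replicate 3. The 4 leukocyte miRNAs in sum had a ratio of means of 0.944, with 1770.4 ± 629 RPM in wild type and 1671 ± 229 RPM in Adar2-/- (SD, n = 3 each). Without wild-type replicate 3 the ratio turned to 1.19. Of this leukocyte sum, miR-142-3p made up 55.8% to 79.5%.

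The inducible miRNAs had higher means in Adar2-/- brains, without passing the test. miR-146a, the feedback inhibitor of NF-kB signalling, stood at 236, 264 and 373 RPM in wild type and at 505, 338 and 354 RPM in Adar2-/-. The groups overlapped through wild-type replicate 3, and the ratio of the means was 1.37 (exact permutation, two-sided, p = 0.3). Among the 399 tested miRNAs, 19.5% had a ratio of means of at least 1.3 in this direction. The log2 fold change of miR-146a was 0.46 (standard error 0.337, 95% interval −0.29 to 1.21, adjusted p = 0.988). It was 0.33 without wild-type replicate 1, the lowest brain, and 0.25 without Adar2-/- replicate 1, the highest brain. With replicate 1 of both genotypes left out it was 0.12. miR-146b, of the same seed, had means of 453 ± 67.6 and 518 ± 88.0 RPM (SD, n = 3 each).

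miR-155, the proinflammatory miRNA, stood at 6.35, 5.84 and 7.88 RPM in wild type and at 8.90, 11.4 and 10.2 RPM in Adar2-/-, from 79 to 268 reads per library. The genotypes did not overlap, and 2.8% of the 608 miRNAs for which no library fell short of 10 reads lay apart in this direction. Adar2-/- replicate 1 was closest to the wild type, and its 95% Wilson interval of 7.65 to 10.4 RPM overlapped that of wild-type replicate 3, 6.82 to 9.10 RPM. The means were 6.69 ± 1.06 and 10.1 ± 1.23 RPM (SD, n = 3 each), a ratio of 1.52 (exact permutation, two-sided, p = 0.1). In the fit without a minimum of reads the log2 fold change was 0.60 (standard error 0.373, 95% interval −0.18 to 1.38, adjusted p = 0.988). Each single-library omission left it between 0.51 and 0.74.

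Because 1 library can carry much of a fold change at this sample size, the fits with each library left out are drawn beside the interval of each miRNA.

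**Figure D2:**
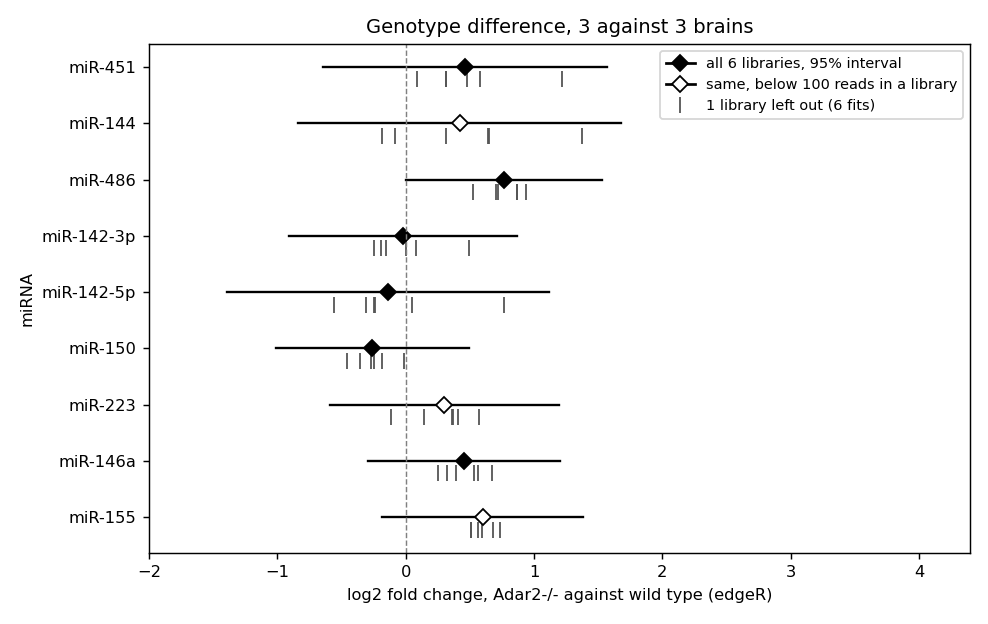
edgeR log2 fold change of Adar2-/- against wild type (diamonds) with its 95% interval (lines), and the 6 values obtained with a library left out (ticks). Open diamonds mark miR-144, miR-223 and miR-155, which had fewer than 100 reads in a library. miR-486 and miR-155 stay above 0 in every omission, as do miR-451 and miR-146a, whereas the ticks of miR-144, miR-142-3p, miR-142-5p and miR-223 lie on both sides of 0.

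Of the 10 names, 7 (6 distinct profiles) reached that minimum and entered the main test. There, 0 members and 0.0% of the 399 miRNAs passed an adjusted p of 0.05 in edgeR. An unadjusted p under 0.05 was found for 0 members and for 3.26% of the 399, 2.26% on the higher side and 1.0% on the lower. In the fit without a minimum 0 members and 3.65% of 1042 miRNAs had one. DESeq2 gave 1 member, miR-486, an unadjusted p under 0.05, beside 10.0% of the 399 in either direction and 5.76% on the higher side. The adjusted p of miR-486 there was 0.452, and the 0.251% that passed was 1 miRNA, miR-497*, which is no member. Positive log2 fold changes were fitted for 3 of the 6 tested profiles (miR-451, miR-486 and miR-146a), beside 50.4% of the 399. The 3 profiles from the fit without a minimum (miR-144, miR-223 and miR-155) were also positive there, beside 51.5% of 1042. A rule after that of the study asks that all 3 replicate numbers point the same way and that the means differ by at least 1.3-fold. The test of each miRNA that the study's own lists also required was left out of this rule. 1 of the 6 tested profiles met it on the higher side, miR-486, beside 5.51% of the 399 (9.02% without the fold minimum). 0 met it on the lower side, beside 4.26% (7.02% without the fold minimum). miR-155 kept its direction, with ratios of 1.40, 1.95 and 1.29, but missed the minimum with 79 reads in wild-type replicate 1. For miR-486 and miR-155, whose genotypes did not overlap, the direction of the 3 ratios was fixed by that.

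Most members had a wider span among the wild-type brains than among the Adar2-/- brains. From the lowest to the highest wild-type library, miR-451 spanned 4.49-fold, miR-142-5p 6.05-fold and miR-142-3p 2.43-fold, against 1.44-fold, 1.58-fold and 1.38-fold in Adar2-/-. These spans rested on single brains. The wild-type span was 2.35-fold for miR-142-5p without replicate 1, 1.93-fold for miR-451 and 1.13-fold for miR-142-3p without replicate 3, and 2.32-fold for miR-451 and 2.58-fold for miR-142-5p without replicate 2, omissions chosen after seeing the data. With 3 brains each, all 6 tested profiles had the wider span in wild type, as did 59.4% of the 399. The wild-type span of miR-451 exceeded that of 97.5% of the 399 and the span of miR-142-5p that of 99.0%, while the Adar2-/- spans of both exceeded 34.3% and 43.9%. miR-223 was the exception among the 9, with 1.46-fold in wild type and 2.60-fold in Adar2-/-. With 3 brains a group, and with members that share libraries, the difference in spread was not tested.

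**Figure D3:**
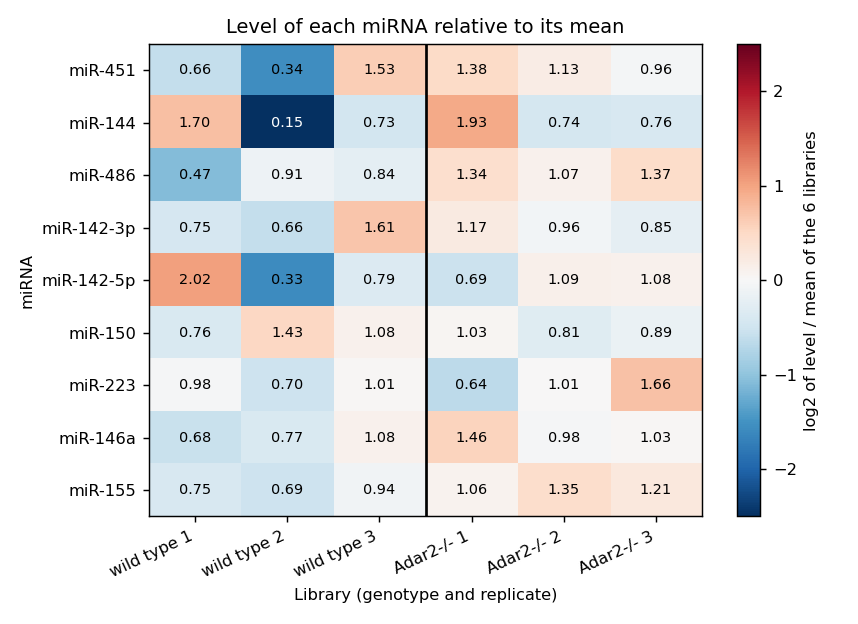
Each miRNA's level in each library divided by its mean over the 6 libraries (numbers), coloured on a log2 scale from blue (below the mean) to red (above). Wild-type replicate 2 is low in miR-451, miR-144 and miR-142-5p and high in miR-150, and wild-type replicate 1 is high in miR-144 and miR-142-5p.

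Ratios between members within a library do not depend on its total. The 3 Adar2-/- brains had nearly the same ratio of miR-451 to miR-142-3p reads, 0.903, 0.904 and 0.862, whereas the wild-type brains had 0.669, 0.392 and 0.725. miR-451 was thus lower relative to miR-142-3p in each wild-type brain than in any Adar2-/- brain. This was the 1 ratio of 9 computed whose groups did not overlap. It was singled out after its values were seen and is given as a description, and 8.75% of all pairs among the 399 miRNAs did not overlap in either direction. Ratios of miR-451 to the other leukocyte miRNAs were not computed, so the difference is given for this pair only.

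miRNAs cut from the same transcript did not keep a fixed ratio. miR-451 had 21.8, 130 and 118 times the reads of miR-144 in wild-type replicates 1 to 3 and 40.4, 86.0 and 71.4 times in Adar2-/- replicates 1 to 3. Replicate 1 had the lowest ratio in both genotypes. miR-142-3p had 10.1, 53.8 and 55.8 times the reads of miR-142-5p in wild type and 46.2, 23.9 and 21.5 times in Adar2-/-. Here wild-type replicate 1 was again lowest, but Adar2-/- replicate 1 was the highest of its genotype.

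The arm called star was the more abundant one for miR-144. miR-144* had 1.72, 2.32 and 3.10 times the reads of miR-144 in wild type and 0.942, 1.75 and 1.62 times in Adar2-/-, and Adar2-/- replicate 1 was the only brain with more miR-144 than miR-144*. miR-146a had fewer reads than miR-146b in 5 brains, at 0.573 to 0.722 times, and 1.21 times as many in Adar2-/- replicate 1.

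**Figure D4:**
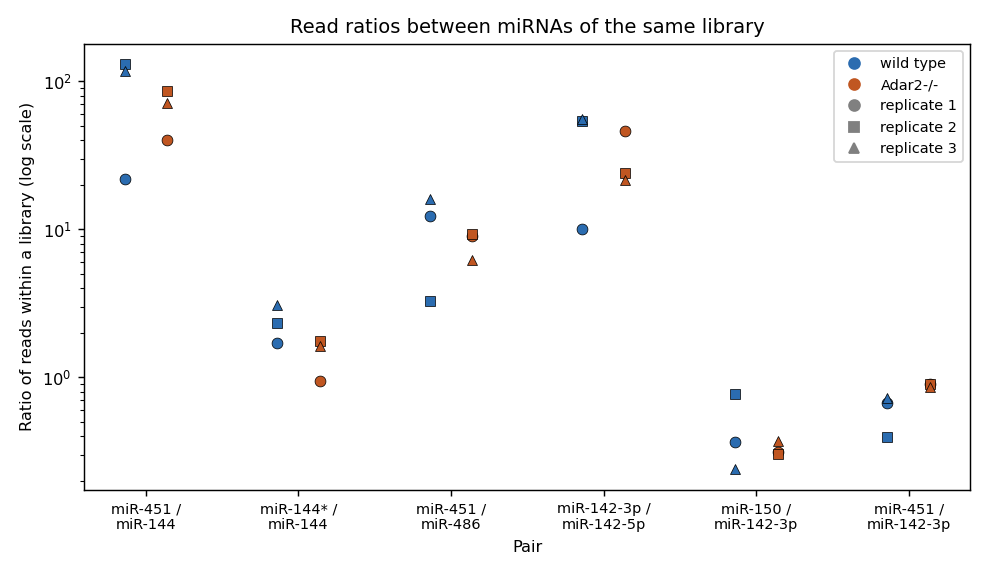
Ratio of the reads of 2 miRNAs within each library (log axis), wild type in blue and Adar2-/- in orange, with the marker shape giving the replicate. The ratio of miR-451 to miR-142-3p (right) lies between 0.862 and 0.904 in Adar2-/- and between 0.392 and 0.725 in wild type, and the other ratios overlap.

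Of the 7 other arms of member hairpins that were listed, miR-144* and miR-486* reached 100 reads in every library, and 0 passed the test, with log2 fold changes of −0.35 (standard error 0.615) and 0.86 (standard error 0.417). miR-150*, miR-223* and miR-3107* had 8 to 49 reads, and miR-146a* and miR-155* had 0 to 9. Of 9 listed rows for other blood or immune miRNAs, 4 were tested (miR-146b, miR-21, miR-342-3p and miR-342-5p) and 0 passed in either direction. miR-21, an abundant miRNA of many activated cell types, had 7096 ± 307 RPM in wild type and 8230.1 ± 1350.4 RPM in Adar2-/- (SD, n = 3 each). miR-342-3p had 61.4 ± 9.94 and 105 ± 49.4 RPM, with the highest value, 160.4 RPM, in Adar2-/- replicate 3. The macrophage miRNA miR-511-3p, from the Mrc1 gene, had 20 to 120 reads, with means of 2.15 ± 0.539 and 3.48 ± 1.63 RPM.

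Vessel miRNAs are given beside the blood miRNAs, since blood lies in vessels. miR-126-3p, miR-126-5p, miR-143 and miR-145 had 62688, 52641 and 80298 RPM in sum in wild-type replicates 1 to 3 and 61659, 55936 and 50321 RPM in Adar2-/- replicates 1 to 3. The sum was mostly miR-126-3p and miR-143, and its members did not share 1 order. Among the wild-type brains miR-126-5p was highest and miR-143 lowest in replicate 1. Among the Adar2-/- brains miR-145, with 322, 451 and 676 RPM in replicates 1 to 3, was lowest where the sum was highest. Whether vessel content had a part in the levels of these miRNAs was not tested.

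Likeness of pattern was measured as Pearson's r of log2 RPM over the 6 libraries, against the 392 tested miRNAs that are not members, and is a description. Most like miR-451 were miR-208b (r = 0.92), the striated muscle miRNA miR-1 (r = 0.915), miR-29c*, miR-203 and miR-93*. The other listed muscle miRNAs did not follow miR-451. miR-133a and miR-133b were highest in wild-type replicate 2 (273 and 109 RPM), where miR-451 was lowest. miR-206 was lowest in Adar2-/- replicate 1 (710 RPM), where miR-451 had 1303 RPM. Most like miR-142-3p were miR-3470b (r = 0.97), miR-208b (r = 0.94), the vessel miRNA miR-143 (r = 0.94), miR-542-3p and miR-203. The listed vessel miRNAs differed in this. miR-126-3p was highest in wild-type replicate 3, as was miR-142-3p. miR-126-5p was highest in wild-type replicate 1 (5626 RPM) and miR-145 in Adar2-/- replicate 3 (676 RPM), where miR-142-3p had 924 and 1049 RPM. miR-486 was closest to miR-362-5p (r = 0.93), miR-679-5p, miR-20a, miR-18a and miR-125b-5p, and miR-146a to miR-542-3p (r = 0.84), miR-143, miR-679-5p, miR-669c and miR-125b-5p. Among the members, r was 0.87 between miR-451 and miR-142-3p, 0.67 between miR-451 and miR-144 and 0.36 between miR-451 and miR-486. It was −0.10 between miR-486 and miR-144 and 0.02 between the arms of miR-142. For miR-142-3p it was −0.02 with miR-150 and −0.01 with miR-223. For miR-223 it was 0.54 with miR-142-5p and −0.53 with miR-150. The lowest was −0.96, between miR-150 and miR-142-5p. All points share the library totals, and both genotypes were pooled.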

How the data were processed

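Counts were used as deposited: per the paper's methods, the authors clipped 36-base reads with Cutadapt, mapped them with NextGenMap at 90% identity or more to the mature miRNAs of miRBase release 16, dropped reverse-strand hits and weighted reads with equally good hits. How weights became whole counts, and so whether miR-486 and miR-3107 each hold all or part of their shared reads, is not given in the sources used here. The counts carry no normalization. The 12 blank lines were dropped. Each library had its own lane, so lane and brain cannot be told apart.

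Depth ran from 12449633 to 23935544 mapped miRNA reads. Wilson intervals cover counting error only.

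edgeR 4.0.16 in R 4.3.3 (glmQLFit, glmQLFTest) was run on 399 miRNAs that no library counted fewer than 100 times, with total reads as library size, no scaling factor and no block. p-values were adjusted over all tested miRNAs (Benjamini-Hochberg). The standard error is the log2 fold change divided by the square root of F. miR-144, miR-223 and miR-155 were taken from a fit of the 1042 miRNAs with a read. Single levels were compared by exact permutation. DESeq2 1.42.0, TMM factors, library sizes that leave out the 5 miRNAs of highest count, a minimum of 10 reads or none, a replicate block and omissions were tried as alternatives. The omissions kept the tested set, and the other minimums gave 608 and 1042 miRNAs. The edgeR and DESeq2 fits were tried on simulated counts with changes larger than the main fold changes of the members. Recovery of differences of the members' size was not shown. Python 3.11.15 with scipy 1.17.1 gave other values.

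All 10 members were named by rule, and the members and lists were chosen with earlier results of these data known. The tables list miR-219 by arm, and miR-451* and miR-511 were not matched to a row. The oligodendrocyte marker miR-338-3p had 328 ± 101 and 399 ± 146 RPM, the liver marker miR-122 4.37 ± 0.484 and 5.78 ± 1.54 RPM, and the choroid plexus markers miR-204 and miR-211 in sum 838 to 1584 and 1064 to 1622 RPM (wild type and Adar2-/-). The endocrine markers miR-375 and miR-7a had in sum 1010.2 to 6270.4 and 1192 to 3640.3 RPM. Hairpin positions are from GENCODE on NCBIM37, which is mm9, the build in the submitters' notes, and 9 of 10 members matched. The sequence table matched 7.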

Additional observations from a re-analysis of the deposited data

How the results depend on the processing

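Over 141 refits of the 9 members, 124 kept their direction and none crossed an adjusted p of 0.05. miR-451, miR-486, miR-146a and miR-155 kept their direction in all 16 alternatives (15 for miR-155, whose values already come from the fit without a minimum), with log2 fold changes of 0.08 to 1.33, 0.48 to 1.05, 0.12 to 0.75 and 0.42 to 0.74, and adjusted p-values of 0.769 to 0.999, 0.377 to 0.998, 0.729 to 0.998 and 0.433 to 0.999. miR-142-3p turned to 0.0217 with TMM factors and ran from −0.33 to 0.59 over the omissions, including 0.49 without wild-type replicate 3, 0.0063 without Adar2-/- replicate 2, 0.08 without Adar2-/- replicate 3 and 0.59 without replicate 3. miR-142-5p ran from −0.67 to 0.95 over the omissions, miR-144 from −0.19 to 1.38, miR-150 from −0.56 to 0.06 and miR-223 from −0.12 to 0.64. miR-142-5p turned to 0.76 without wild-type replicate 1, 0.05 without Adar2-/- replicate 1 and 0.95 without replicate 1, miR-144 to −0.08 without wild-type replicate 2 and −0.19 without Adar2-/- replicate 1, miR-150 to 0.0611 without replicate 2, and miR-223 to −0.12 without Adar2-/- replicate 3 and −0.01 without replicate 3. The cause was not tested.

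The deviations of same-numbered libraries correlated at −0.001, −0.08 and −0.01, so the numbers were not taken to pair the brains, and libraries did not correlate best with their own number. With a replicate block 0 of 399 miRNAs passed, as without it, 7 had an unadjusted p under 0.05, and miR-142-3p and miR-142-5p turned to 0.0949 and 0.23 (0.10 and 0.21 with TMM factors as well).

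DESeq2 called 1 of 399 miRNAs. The omissions gave 0 to 18 calls, the 18, each higher in Adar2-/- and 0 of them a member, without replicate 1. With a replicate number left out only 2 ratios have to point the same way, and the members higher by at least 1.3-fold were then 1 to 4 (2 without replicate 1, miR-486 and miR-142-5p, and 4 without replicate 3, miR-451, miR-486, miR-142-3p and miR-146a) and those lower 0 to 1 (miR-150 without replicate 1). The share of all 399 miRNAs that meets this looser rule was not computed, so nothing is read from these counts. The ratio of the red cell sums ran from 1.11 to 2.39 and that of the leukocyte sums from 0.779 to 1.25, both highest without replicate 3. miR-223, miR-155 and miR-144 rest on few reads in some libraries, and 3 brains a group limit every comparison.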
